A study of Mus musculus with 6 samples.

Results

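Collagen chains were followed in a calf muscle, the gastrocnemius, taken from male C57BL/6 mice on a high or a normal phosphate diet. The chains are the protein-coding genes of the count table whose symbol is Col, a type number, the letter a and a chain number, with nothing after it. The rule uses no measured value. It finds 44 genes among 47967 in the table, and 42 of them are among the 15347 genes with enough counts to be tested. The remaining chains, Col6a4 with 1 to 17 counts per library and Col25a1 with 2 to 16, are given by their counts only.

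The high phosphate diet held 2.0% inorganic phosphate (2.3% in total) and the normal phosphate diet 0.6% (0.9% in total). Both diets contained calcium at 1.9%, sodium at 0.9%, magnesium at 0.3% and potassium at 1.8%. The mice were 20 to 24 weeks of age and ate the diets for 12 weeks. RNA was sequenced in 3 libraries for each diet, to see how the muscle transcriptome differs on a high phosphate intake. Nothing in the labels says whether the libraries of a diet are from different mice, so p-values here reflect the spread among these samples alone, which could be technical.

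Collagens are proteins of the extracellular matrix in which 3 chains wind into a triple helix. The fibrillar chains build the load-bearing fibrils of tendon and of the connective tissue sheaths in muscle, type IV chains form the sheet-like network of basement membranes around every muscle fibre and capillary, and type VI chains form beaded filaments between the basement membrane and the fibrils. FACIT chains sit on the surface of other fibrils, and the chains grouped here as junction collagens are transmembrane or matrix proteins of cell attachment sites, among them the myotendinous and neuromuscular junctions. In muscle most collagen is made by fibroblast-like cells between the fibres, with a share from endothelial and other cells.

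The libraries held 21856006 to 27474251 gene counts. Levels are TMM-normalized CPM, that is, counts scaled to library size and to the TMM factor of the library. Each log2 fold change sets high over normal phosphate and is given ± SE. Genes with an adjusted p under 0.05 in edgeR's quasi-likelihood F test are the ones called, with Benjamini-Hochberg adjustment over all 15347 genes. The scaling matters here. The 3 high phosphate libraries had TMM factors of 0.795 to 0.882 and the normal phosphate libraries 1.1 to 1.29, so that with library size alone the median over all genes was a log2 fold change of -0.49, against -0.02 with TMM. One library stood apart. The first principal component of all genes (77.3% of the variance) placed the high phosphate libraries at 51.1 to 53.0, normal phosphate replicates 1 and 3 at -36.5 and -43.8, and normal phosphate replicate 2 at -75.4. Of the 42 tested chains, 32 had their highest level in that library, and results are therefore also given without it, for all tested chains in the plot of fold changes.

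The collagen chains were broadly lower on the high phosphate diet. Of the 42 tested chains, 27 fell, against 26.3% of all genes tested, 3 rose, against 23.0% of all genes, and 12 were not called. The falls ran from a log2 fold change of -0.88 to -2.82, and 26 of the 27 were at least 2-fold (13.5% of all genes were called lower by that much). The median log2 fold change was -1.50 over the tested chains and -0.02 over all genes. In 28 chains every high phosphate library lay below every normal phosphate library (32.1% of all genes), and in 5 every high phosphate library lay above (30.3% of all genes). By library size alone these counts were 32 (60.1% of all genes) and 0 (8.19%). With TMM 62.4% of all genes did not overlap in either direction, so a gap between the groups was common.

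All chains together took 0.171%, 0.154% and 0.202% of the counts in high phosphate replicates 1, 2 and 3, against 0.609%, 1.71% and 0.517% in normal phosphate replicates 1, 2 and 3. The groups did not overlap, and normal phosphate replicate 2 was far above the other two normal libraries. These shares do not depend on TMM, but they are values by library size alone. On that scaling every high phosphate library lay below every normal phosphate library in 60.1% of all genes. A share also depends on the other genes counted. The 8 listed myofibre markers took 13.5% to 15.7% of the counts in high phosphate and 6.91% to 8.81% in normal phosphate libraries. In bulk tissue, fewer cells of a type and less RNA per cell cannot be told apart.

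Without normal phosphate replicate 2, 26 chains fell (22.2% of 15556 genes) and 2 rose (19.6%), with a median log2 fold change of -1.02 over the chains and -0.02 over all genes. The 27 chains that fell with all 6 libraries all had a smaller fall without that library, and 25 of them were still called lower. The calls lost were those of Col26a1 and Col27a1, and Col6a5 was called lower in their place. The SE was smaller without the library in 25 of the 27. With library size alone, 30 chains fell (51.4% of all genes) and 2 rose (5.72%). With no filter on low counts, a run that also takes in Col6a4 and Col25a1, 18 of 44 chains fell (15.2% of 28193 genes).

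**Figure D1:**
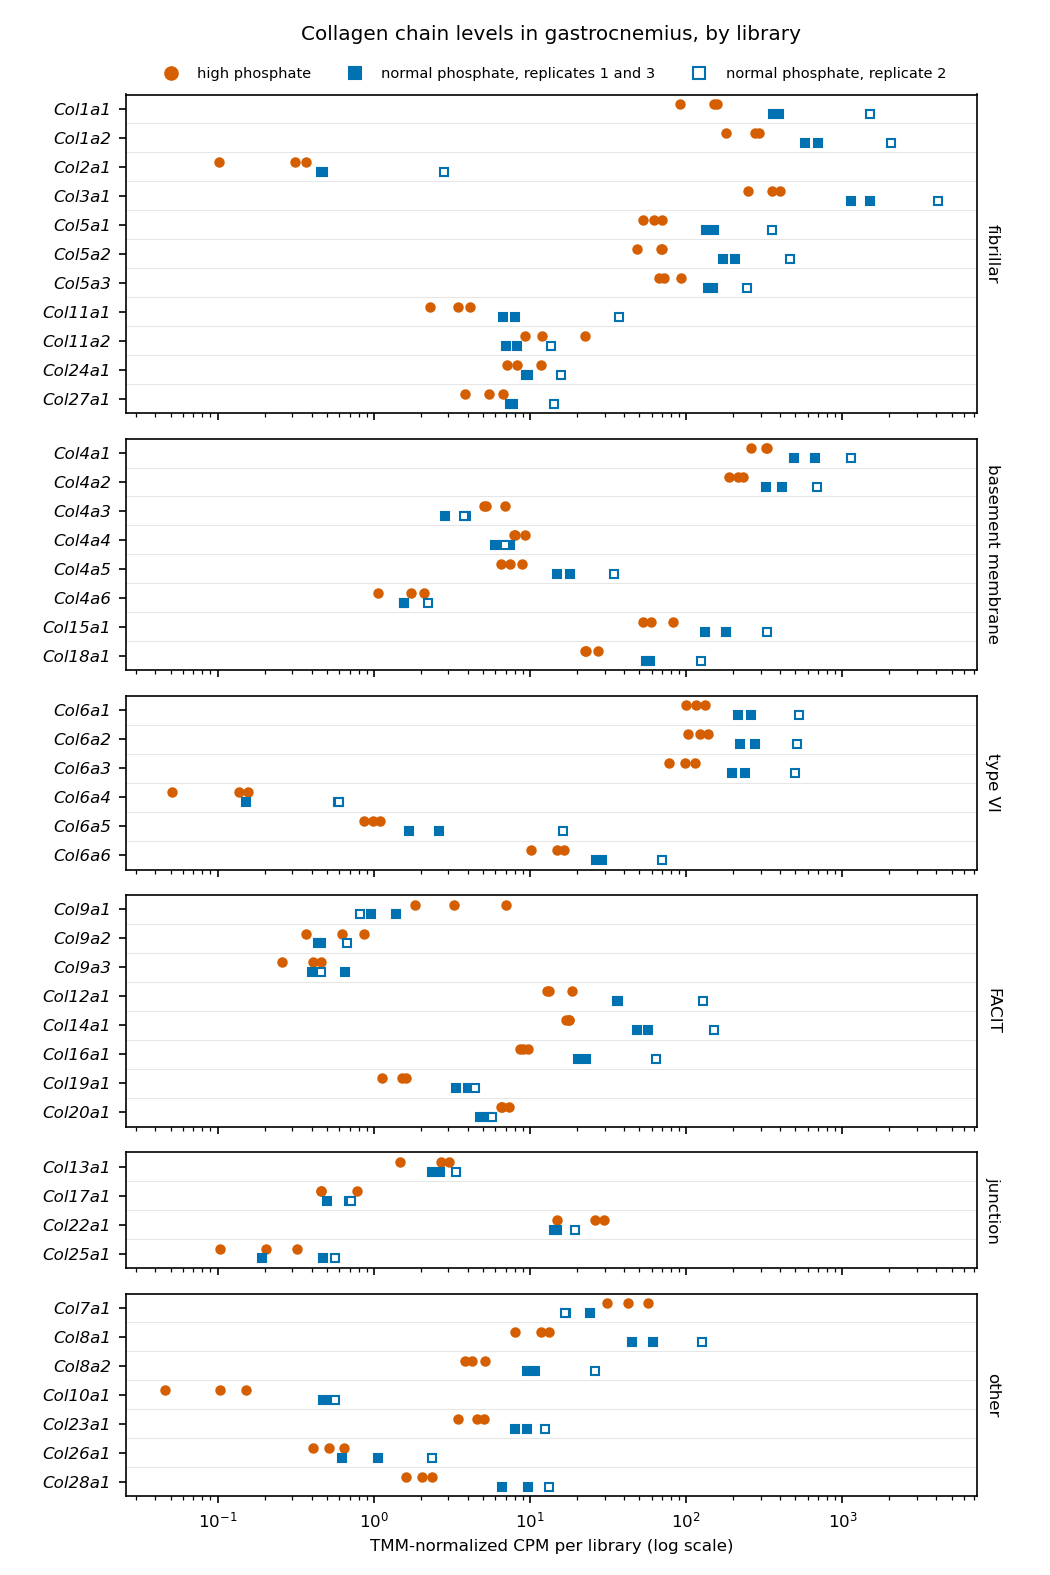
TMM-normalized CPM (log scale) of the 44 collagen chains in each library, in panels by class; circles are high phosphate libraries and squares normal phosphate libraries, with normal phosphate replicate 2 open. The circles lie left of all squares in 28 of the 42 tested chains, and the open square is the rightmost symbol in 32 of them.

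Most fibrillar chains fell. Types I and III are the bulk of muscle fibrils. With all 6 libraries, Col3a1 and Col1a1 had the lowest log2 fold changes of the class, and Col1a2 lay at its median. Of 11 fibrillar chains, all tested, 8 fell (26.3% of all genes), 0 rose (23.0%) and 3 were not called. The median log2 fold change was -2.15, and -1.17 without normal phosphate replicate 2, when 7 fell (22.2% of all genes). In edgeR, DESeq2 and limma-voom alike, 0 were called higher, and 0 were higher at an unadjusted p under 0.05. The summed level of the class was 1090, 718 and 1040 CPM in high phosphate replicates 1, 2 and 3, against 3140, 8780 and 2550 CPM in normal phosphate replicates 1, 2 and 3.

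Col3a1, the single chain of type III collagen, which accompanies type I in compliant tissue, had the highest level per length of all chains on both diets. It lies on chromosome 1 (GRCm38, 45311538 to 45349706, plus strand). Its level was 397, 250 and 352 CPM in high phosphate replicates 1, 2 and 3, against 1510, 4080 and 1140 CPM in normal phosphate replicates 1, 2 and 3. The groups were far apart, and normal phosphate replicate 2 was the highest. The log2 fold change was -2.75 ± 0.49 (edgeR adjusted p = 0.00306), and -1.99 ± 0.21 without that library (edgeR adjusted p = 0.000452).

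Type I collagen is made of 2 chains from Col1a1 and 1 from Col1a2. Col1a1 had 157, 91.3 and 150 CPM in the high phosphate libraries, against 395, 1510 and 361 CPM in the normal phosphate libraries. Col1a2 had 293, 180 and 277 CPM in the high phosphate libraries, against 696, 2050 and 576 CPM in the normal phosphate libraries. High phosphate replicate 2 was the lowest library for both chains and normal phosphate replicate 2 the highest, with no overlap. The log2 fold change of Col1a1 was -2.51 ± 0.62 (edgeR adjusted p = 0.0151), and -1.51 ± 0.22 without normal phosphate replicate 2 (edgeR adjusted p = 0.00206). That of Col1a2 was -2.15 ± 0.50 (edgeR adjusted p = 0.00974), and -1.35 ± 0.21 without that library (edgeR adjusted p = 0.00192). Without a filter on low counts neither passed the threshold (edgeR adjusted p = 0.0861 for Col1a1 and 0.0823 for Col1a2).

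Type V chains are minor partners that nucleate type I fibrils and limit their width. All 3 fell without overlap between the diets, and 32.1% of all genes lay wholly lower in this way. Col5a2 had 70.0, 48.7 and 69.3 CPM in the high phosphate libraries, against 206, 463 and 171 CPM in the normal phosphate libraries, and its log2 fold change was -2.16 ± 0.38 (edgeR adjusted p = 0.00351). Col5a1 had 62.0, 53.0 and 69.7 CPM in the high phosphate libraries, against 151, 352 and 134 CPM in the normal phosphate libraries, and its log2 fold change was -1.79 ± 0.37 (edgeR adjusted p = 0.00608, and 0.0569 with no filter on low counts). Col5a3 changed least, with 66.9, 72.1 and 92.4 CPM in the high phosphate libraries, against 149, 246 and 137 CPM in the normal phosphate libraries, and its log2 fold change was -1.20 ± 0.23 (edgeR adjusted p = 0.00357). Col5a2 and Col3a1 are neighbours on chromosome 1, tail to tail with 24614 bases between them, in the GENCODE M21 annotation.

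The other fibrillar chains are best known from cartilage and bone, and their levels here were low. Col11a1 had 3.44, 2.29 and 4.10 CPM in the high phosphate libraries, against 6.70, 37.0 and 8.02 CPM in the normal phosphate libraries. Most of its normal phosphate mean came from replicate 2. The chain fell by 2.39 ± 0.77 on the log2 scale (edgeR adjusted p = 0.0443), with a log2 fold change of -1.17 ± 0.24 without that library (edgeR adjusted p = 0.00477). The call was lost when any 1 high phosphate library was left out (edgeR adjusted p = 0.0907 to 0.123), without normal phosphate replicate 3 (0.0579), with no filter on low counts (0.150) and in limma-voom (log2 fold change -1.99, adjusted p = 0.0603). Col27a1 had 5.50, 3.82 and 6.70 CPM in the high phosphate libraries, against 7.43, 14.2 and 7.76 CPM in the normal phosphate libraries. Its log2 fold change of -0.88 ± 0.30 (edgeR adjusted p = 0.0362) was -0.51 ± 0.22 without normal phosphate replicate 2 (edgeR adjusted p = 0.0942), and the call also ended without high phosphate replicate 1 (0.0871) or 2 (0.111).

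The remaining fibrillar chains were not called. Col2a1, the main chain of cartilage fibrils, had 0.367, 0.102 and 0.312 CPM in the high phosphate libraries, against 0.460, 2.80 and 0.476 CPM in the normal phosphate libraries. On the log2 scale the fold change was -2.23 ± 0.88 (edgeR adjusted p = 0.0658), and -0.82 ± 0.52 without normal phosphate replicate 2 (edgeR adjusted p = 0.233). Col2a1 was called lower by library size alone (-2.77, edgeR adjusted p = 0.0289) and in DESeq2 (adjusted p = 0.0238). These calls rest on few reads, with 8, 2 and 6 counts in the high phosphate libraries. With 12, 79 and 13 counts, it passed the filter on low counts in edgeR through its normal phosphate libraries. Normal phosphate replicate 2 also held 192 counts of Acan, the proteoglycan core protein of cartilage, against 9 and 15 in the other normal phosphate libraries. Other listed cartilage and bone markers were mixed there. Matn3 (40 counts, against 16 and 12) and Hapln1 (17, against 2 and 9) were higher. Sp7 (6, against 5 and 5) and Dmp1 (10, against 14 and 6) differed little, and Matn1, Ibsp, Bglap and Bglap2 had 0 or 1. The part of cartilage in that library was not tested. Col11a2, the partner of Col11a1 in cartilage, had 22.5, 9.22 and 12.0 CPM in the high phosphate libraries, against 7.01, 13.6 and 8.27 CPM in the normal phosphate libraries (log2 fold change 0.60 ± 0.37, edgeR adjusted p = 0.212), and the groups overlapped. Col24a1, a chain of developing bone, had 11.8, 7.13 and 8.26 CPM in the high phosphate libraries, against 9.77, 15.7 and 9.41 CPM in the normal phosphate libraries (log2 fold change -0.36 ± 0.25, edgeR adjusted p = 0.256), and these overlapped too, while library size alone gave -0.87 and a call (edgeR adjusted p = 0.0242).

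**Figure D2:**
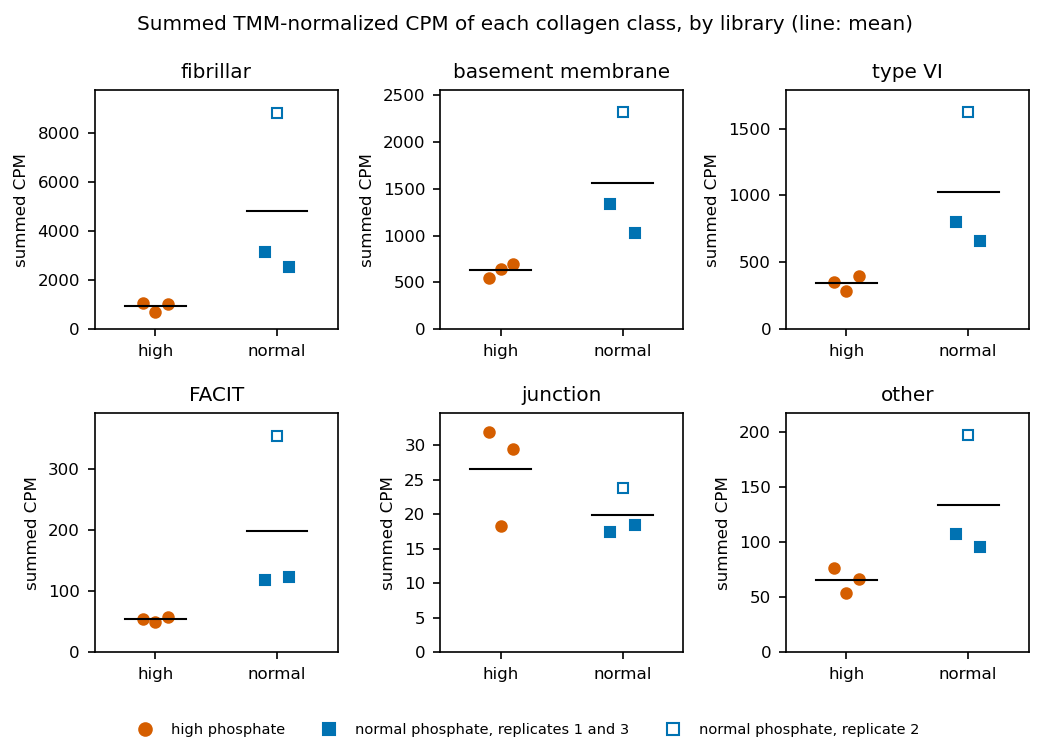
Summed TMM-normalized CPM of each collagen class in each library, with a line at the mean; circles are high phosphate libraries, squares normal phosphate libraries and the open square normal phosphate replicate 2. The fibrillar sums were 718 to 1090 CPM in high phosphate libraries and 2550 to 8780 CPM in normal phosphate libraries, while the junction sums overlapped at 18.4 to 32.0 CPM in high phosphate and 17.5 to 23.9 CPM in normal phosphate libraries.

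Among the basement membrane chains the major type IV pair, Col4a1 and Col4a2, fell, while neither Col4a3 nor Col4a4 did. Of 8 chains, all tested, 5 fell (26.3% of all genes), 1 rose (23.0%) and 2 were not called. The median log2 fold change was -1.24. Without normal phosphate replicate 2 it was -0.86, with the same counts (22.2% of all genes fell and 19.6% rose). The class summed to 552, 639 and 695 CPM in high phosphate replicates 1, 2 and 3, against 1340, 2320 and 1030 CPM in normal phosphate replicates 1, 2 and 3.

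The 6 type IV genes lie in 3 pairs, head to head on opposite strands, in the GENCODE M21 annotation of GRCm38. Col4a1 (chromosome 8, 11198423 to 11312826, minus strand) and Col4a2 (11312805 to 11449287, plus strand) start 21 bases apart. Col4a4 (chromosome 1, 82448423 to 82586849, minus strand) and Col4a3 (82586921 to 82722059, plus strand) are 71 bases apart. Col4a6 (chromosome X, 141165403 to 141474076, minus strand) and Col4a5 (141475385 to 141689234, plus strand) are 1308 bases apart. Sequences near the paired starts are shown. Only the stretch of Col4a4 covers the whole gap between 2 starts, and the others lie before the start of the gene they are named for. All sequences are from RefSeq (GRCm38.p6), in lower case, with matches to CCAAT or GGGCGG, on either strand, in capitals. The 30-base pieces of Col4a1 and Col4a2 lie within annotated exons, and the other stretches outside any.
Col4a2, chr8:11312765-11312794, plus strand: ggagctccCCAATttgttggcgctgccccc
Col4a1, chr8:11312950-11312979, minus strand: tgcccgggATTGGcgagccaaggggctcgt
Col4a4, the whole gap to Col4a3, chr1:82586850-82586920, minus strand: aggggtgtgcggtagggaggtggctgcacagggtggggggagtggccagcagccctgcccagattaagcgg
Col4a5, 250 to 35 bases before its RefSeq start, chrX:141475169-141475384, plus strand: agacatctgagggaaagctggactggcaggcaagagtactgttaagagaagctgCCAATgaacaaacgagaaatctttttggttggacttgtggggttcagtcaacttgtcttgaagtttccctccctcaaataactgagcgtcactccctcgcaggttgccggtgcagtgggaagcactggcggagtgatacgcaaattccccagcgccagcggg
Col4a6, 250 bases before its start, chrX:141474077-141474326, minus strand: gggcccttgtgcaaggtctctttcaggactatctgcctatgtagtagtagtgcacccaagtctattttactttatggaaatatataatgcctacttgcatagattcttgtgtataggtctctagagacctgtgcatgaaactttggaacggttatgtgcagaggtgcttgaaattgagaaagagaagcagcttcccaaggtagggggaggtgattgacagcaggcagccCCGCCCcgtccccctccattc

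Col4a1 and Col4a2 make the common type IV trimer of capillary and muscle fibre basement membranes. Col4a1 had 259, 326 and 329 CPM in the high phosphate libraries, against 665, 1140 and 488 CPM in the normal phosphate libraries. Col4a2 had 188, 216 and 230 CPM in the high phosphate libraries, against 412, 685 and 324 CPM in the normal phosphate libraries. Both chains were lower in every high phosphate library, and the replicates kept the same order in both: replicate 3 was the highest in the high phosphate group and replicate 2 in the normal phosphate group. The log2 fold change was -1.33 ± 0.29 for Col4a1 (edgeR adjusted p = 0.00590) and -1.16 ± 0.26 for Col4a2 (edgeR adjusted p = 0.00605), and -0.92 ± 0.17 and -0.80 ± 0.14 without normal phosphate replicate 2. The 22 bases their exons share can be counted for either gene where counting ignores the strand.

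Col4a3 and Col4a4 form, with Col4a5, the trimer best known from the kidney glomerulus. Col4a3 had 5.04, 5.20 and 6.96 CPM in the high phosphate libraries, against 3.87, 3.76 and 2.86 CPM in the normal phosphate libraries. The fitted log2 fold change was 0.71 ± 0.21 (edgeR adjusted p = 0.0181), but 0.24 by library size alone (edgeR adjusted p = 0.412), and the call was also lost without high phosphate replicate 3 (0.0754) or normal phosphate replicate 3 (0.0638). Of its exonic bases, 5.6% overlap C430014B12Rik on the other strand. Col4a4 had 7.97, 7.85 and 9.29 CPM in the high phosphate libraries, against 5.98, 6.94 and 7.40 CPM in the normal phosphate libraries, which did not overlap with TMM. Its log2 fold change of 0.30 ± 0.15 was not called (edgeR adjusted p = 0.117) and was -0.17 with library size alone. With either scaling, neither chain of this pair was called lower.

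Of the X-linked pair Col4a5 fell and Col4a6 was not called. Col4a5 had 7.42, 6.47 and 8.88 CPM in the high phosphate libraries, against 17.9, 34.7 and 14.8 CPM in the normal phosphate libraries, with no overlap. Its log2 fold change was -1.56 ± 0.32 (edgeR adjusted p = 0.00583), -1.10 ± 0.16 without normal phosphate replicate 2, and was not called with no filter on low counts (edgeR adjusted p = 0.0543). Col4a6, the partner of Col4a5 in smooth muscle basement membranes, had 1.74, 1.07 and 2.08 CPM in the high phosphate libraries, against 1.57, 2.23 and 1.57 CPM in the normal phosphate libraries. These overlapped, and its log2 fold change was -0.14 ± 0.30 (edgeR adjusted p = 0.721), with an SE wide enough to hide a moderate change in either direction. The difference between the 2 chains of a pair was not tested, other than for Col4a1 and Col4a2.

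**Figure D3:**
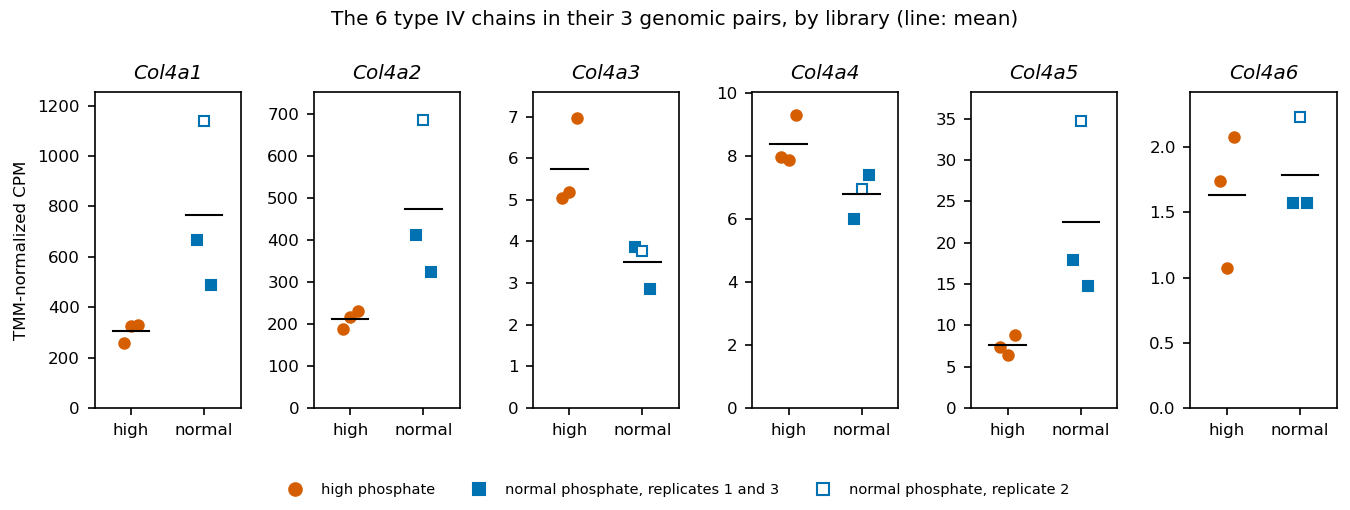
TMM-normalized CPM of the 6 type IV chains in each library, with a line at the mean; circles are high phosphate libraries, squares normal phosphate libraries and the open square normal phosphate replicate 2. Col4a1, Col4a2 and Col4a5 lie lower in all 3 high phosphate libraries, Col4a3 and Col4a4 lie higher with TMM scaling, and the groups of Col4a6 overlap.

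Types XV and XVIII are the proteoglycan collagens of the basement membrane zone, and type XVIII is the source of endostatin. Col15a1 had 59.8, 53.0 and 82.3 CPM in the high phosphate libraries, against 181, 329 and 131 CPM in the normal phosphate libraries, and its log2 fold change was -1.72 ± 0.34 (edgeR adjusted p = 0.00512). Col18a1 had 22.4, 22.7 and 27.4 CPM in the high phosphate libraries, against 55, 125 and 58.8 CPM in the normal phosphate libraries, and its log2 fold change was -1.72 ± 0.32 (edgeR adjusted p = 0.00440). Neither overlapped between the diets, and 32.1% of all genes lay wholly lower on high phosphate. Without normal phosphate replicate 2 the log2 fold changes were -1.27 ± 0.21 for Col15a1 and -1.24 ± 0.11 for Col18a1, both still called.

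The 3 common type VI chains fell by similar amounts. Of 6 type VI genes 5 were tested, of which 4 fell (26.3% of all genes), 0 rose (23.0%) and 1 was not called. Their median log2 fold change was -1.6. Without normal phosphate replicate 2 all 5 tested chains fell (22.2% of all genes), with a median of -1.05. The class summed to 354, 290 and 400 CPM in high phosphate replicates 1, 2 and 3, against 804, 1620 and 663 CPM in normal phosphate replicates 1, 2 and 3.

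Col6a1, Col6a2 and Col6a3 assemble into 1 trimer, and defects of these chains cause muscular dystrophy in humans. Col6a1 had 116, 99.7 and 131 CPM in the high phosphate libraries, against 261, 525 and 216 CPM in the normal phosphate libraries, and its log2 fold change was -1.53 ± 0.32 (edgeR adjusted p = 0.00540). Col6a2 had 123, 102 and 138 CPM in the high phosphate libraries, against 274, 509 and 222 CPM in the normal phosphate libraries, and its log2 fold change was -1.47 ± 0.30 (edgeR adjusted p = 0.00467). Col6a3 had 98.5, 77.9 and 114 CPM in the high phosphate libraries, against 239, 498 and 195 CPM in the normal phosphate libraries, and its log2 fold change was -1.68 ± 0.35 (edgeR adjusted p = 0.00577, and 0.0541 with no filter on low counts). In all 3 chains every high phosphate library lay below every normal phosphate library (32.1% of all genes). The order of the libraries within each diet was the same. Without normal phosphate replicate 2 their log2 fold changes were -1.05 ± 0.14 for Col6a1, -1.04 ± 0.15 for Col6a2 and -1.16 ± 0.17 for Col6a3.

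Col6a4, Col6a5 and Col6a6 are chains that can take the place of Col6a3 in the trimer, and lie in a row on chromosome 9. Col6a6 had 14.8, 10.1 and 16.4 CPM in the high phosphate libraries, against 28.7, 69.8 and 26.6 CPM in the normal phosphate libraries, and its log2 fold change was -1.6 ± 0.42 (edgeR adjusted p = 0.0199). That call was lost without high phosphate replicate 1 (edgeR adjusted p = 0.0564) or 2 (0.0618) and with no filter on low counts (0.1). Col6a5 had 1.1, 0.866 and 0.986 CPM in the high phosphate libraries, against 1.69, 16.3 and 2.60 CPM in the normal phosphate libraries. Normal phosphate replicate 2 was 7.62-fold above the mean of the other two normal libraries, the widest such gap of any tested chain. Its log2 fold change of -2.80 ± 0.98 was not called (edgeR adjusted p = 0.0554; 0.0157 in DESeq2), whereas without that library a log2 fold change of -1.12 ± 0.30 was (edgeR adjusted p = 0.0162). Of the 50-base stretches in Col6a5 exons, 3.42% occur in Col6a6 too, so a small part of its reads could have come from there.

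FACIT chains split into 3 patterns. Of 8 chains, all tested, 4 fell (26.3% of all genes), 1 rose (23.0%) and 3 were not called. The median log2 fold change was -0.94. Without normal phosphate replicate 2 it was -0.86, when 4 fell (22.2% of all genes) and 0 rose (19.6%). Col12a1 and Col14a1, which coat type I fibrils in tendon and muscle sheaths, had levels apart on the 2 diets. Col14a1 had 17.8, 17.8 and 16.9 CPM in the high phosphate libraries, against 48.6, 151 and 56.9 CPM in the normal phosphate libraries, and its log2 fold change was -2.29 ± 0.46 (edgeR adjusted p = 0.00835), and -1.59 ± 0.10 without normal phosphate replicate 2 (edgeR adjusted p = 8.28e-05). Col12a1 had 13.2, 12.8 and 18.5 CPM in the high phosphate libraries, against 36.8, 128 and 35.9 CPM in the normal phosphate libraries, and its log2 fold change was -2.17 ± 0.57 (edgeR adjusted p = 0.0230), and -1.29 ± 0.16 without normal phosphate replicate 2 (edgeR adjusted p = 0.000648). The high phosphate libraries of Col14a1 lay close together, and normal phosphate replicate 2 stood 2.86-fold (Col14a1) and 3.51-fold (Col12a1) above the mean of the other two.

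Col16a1 had 8.61, 9.07 and 9.66 CPM in the high phosphate libraries, against 22.8, 63.9 and 20.2 CPM in the normal phosphate libraries, and its log2 fold change was -1.97 ± 0.48 (edgeR adjusted p = 0.0160). The calls of Col12a1 and Col16a1 were lost when any 1 high phosphate library was left out (edgeR adjusted p = 0.0510 to 0.0730 for Col12a1 and 0.0521 to 0.0538 for Col16a1) and without a filter on low counts (0.0914 for Col12a1 and 0.0765 for Col16a1). Col19a1, a chain of basement membrane zones that mouse oesophageal muscle needs, had 1.51, 1.12 and 1.61 CPM in the high phosphate libraries, against 3.98, 4.43 and 3.37 CPM in the normal phosphate libraries. Normal phosphate replicate 2 was 1.2-fold above the mean of the other two, a smaller gap than in most chains that fell. The log2 fold change of -1.47 ± 0.23 (edgeR adjusted p = 0.00139) was -1.37 ± 0.25 without that library (edgeR adjusted p = 0.00280).

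Col9a1, a chain of type IX collagen on cartilage fibrils, went the other way. It had 7.01, 1.83 and 3.27 CPM in the high phosphate libraries, against 0.958, 0.815 and 1.39 CPM in the normal phosphate libraries. All high phosphate libraries were higher with TMM, with a wide spread among them, but the diets overlapped by library size alone. The log2 fold change was 1.94 ± 0.48 (edgeR adjusted p = 0.0104), 1.44 by library size alone (edgeR adjusted p = 0.0216), and 1.78 ± 0.60 without normal phosphate replicate 2, when the call was lost (edgeR adjusted p = 0.0544). Without high phosphate replicate 1, its highest library, the log2 fold change of Col9a1 was 1.28 (edgeR adjusted p = 0.0266). Its partner chains stayed at or under 0.866 CPM and overlapped between the diets: the log2 fold change of Col9a2 was 0.22 ± 0.39 (edgeR adjusted p = 0.660, and -0.25 with library size alone) and that of Col9a3 -0.41 ± 0.38 (edgeR adjusted p = 0.392). Of the exonic bases of Col9a3, 6.1% overlap Tcfl5 on the other strand. Col20a1 had 6.51, 6.62 and 7.32 CPM in the high phosphate libraries, against 4.79, 5.67 and 5.42 CPM in the normal phosphate libraries, a log2 fold change of 0.36 ± 0.15 that was not called (edgeR adjusted p = 0.0719) and was -0.12 with library size alone.

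None of the junction chains was called with all 6 libraries. Of 4 chains 3 were tested. At an adjusted p under 0.05, 0 were called in edgeR, DESeq2 or limma-voom (49.3% of all genes in edgeR). At an unadjusted p under 0.05 there were 0 in edgeR and limma-voom and 1, Col22a1, in DESeq2. Their median log2 fold change was -0.18, and -0.07 without normal phosphate replicate 2. Col22a1, a FACIT-like chain of the myotendinous junction, was the most abundant of them. It had 29.7, 14.8 and 25.9 CPM in the high phosphate libraries, against 14.2, 19.3 and 14.9 CPM in the normal phosphate libraries. High phosphate replicate 2 lay among the normal phosphate libraries and the other two high phosphate libraries above them. Over all 6 libraries its log2 fold change was 0.54 ± 0.25 (edgeR adjusted p = 0.0990), 0.04 with library size alone, and 0.8 without high phosphate replicate 2, when it was called (edgeR adjusted p = 0.0074).

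Col13a1, a transmembrane chain of the neuromuscular junction, had 1.47, 3.01 and 2.70 CPM in the high phosphate libraries, against 2.64, 3.37 and 2.34 CPM in the normal phosphate libraries (log2 fold change -0.23 ± 0.29, edgeR adjusted p = 0.543). Col17a1, a transmembrane chain of hemidesmosomes, had 0.458, 0.459 and 0.779 CPM in the high phosphate libraries, against 0.498, 0.709 and 0.696 CPM in the normal phosphate libraries (log2 fold change -0.18 ± 0.35, edgeR adjusted p = 0.696). Both overlapped between the diets, and at these levels a moderate difference was not detectable. Col25a1, a transmembrane chain that motor axons need in mouse muscle, was too low to test, with 7, 4 and 2 counts in the high phosphate libraries, against 5, 16 and 13 counts in the normal phosphate libraries.

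Outside these classes, 6 of 7 chains fell (26.3% of all genes) and 1, Col7a1, rose (23.0%), with a median log2 fold change of -1.81. Without normal phosphate replicate 2, 5 fell (22.2% of all genes) and 1 rose (19.6%), with a median of -1.21. Col8a1 had the lowest log2 fold change of all 42 tested chains. Type VIII is a short-chain collagen of vessel walls and of the matrix beneath corneal endothelium. Col8a1 (chromosome 16, 57624258 to 57754737, minus strand) had 8.02, 11.8 and 13.2 CPM in the high phosphate libraries, against 61.0, 127 and 45.2 CPM in the normal phosphate libraries. The highest high phosphate library was far below the lowest normal phosphate library. On the log2 scale the fold change was -2.82 ± 0.43 (edgeR adjusted p = 0.00287), and -2.27 ± 0.22 without normal phosphate replicate 2 (edgeR adjusted p = 0.000602). Col8a2, its partner chain, had 4.22, 3.82 and 5.14 CPM in the high phosphate libraries, against 10.7, 25.9 and 9.52 CPM in the normal phosphate libraries, and its log2 fold change was -1.81 ± 0.40 (edgeR adjusted p = 0.00803, and 0.0692 with no filter on low counts).

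Col28a1 is a chain known in the mouse from peripheral nerve. It had 1.6, 2.04 and 2.34 CPM in the high phosphate libraries, against 9.65, 13.2 and 6.66 CPM in the normal phosphate libraries, with no overlap. Its log2 fold change of -2.31 ± 0.28 had the smallest adjusted p of the tested chains (edgeR adjusted p = 0.000549), and was -2.04 ± 0.24 without normal phosphate replicate 2. The summed level of 7 Schwann cell markers overlapped between the diets, at 224 to 332 CPM in high phosphate and 244 to 306 CPM in normal phosphate libraries, with 1 of the 7 called lower and 0 higher. The part of nerve content in the fall of Col28a1 was not tested beyond those values.

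Col23a1, a transmembrane chain, had 4.58, 5.04 and 3.48 CPM in the high phosphate libraries, against 7.97, 12.4 and 9.59 CPM in the normal phosphate libraries, and its log2 fold change was -1.19 ± 0.21 (edgeR adjusted p = 0.00207). Col10a1, the chain of hypertrophic cartilage, had 1, 3 and 2 counts in the high phosphate libraries, against 14, 16 and 13 counts in the normal phosphate libraries. It passed the filter on low counts through its normal phosphate libraries, so that its call, at -2.35 ± 0.47 on the log2 scale (edgeR adjusted p = 0.00374), rests on few reads and on that filter. Col26a1 had 0.642, 0.408 and 0.519 CPM in the high phosphate libraries, against 1.07, 2.34 and 0.622 CPM in the normal phosphate libraries, which overlapped. Its log2 fold change of -1.35 ± 0.50 (edgeR adjusted p = 0.0492) was -0.68 ± 0.40 without normal phosphate replicate 2 (edgeR adjusted p = 0.198), and the call was also lost with size factors in the style of DESeq2 (edgeR adjusted p = 0.0511), in DESeq2 (adjusted p = 0.0629) and limma-voom (adjusted p = 0.107), and when either normal phosphate replicate 1 or any 1 high phosphate library was left out (edgeR adjusted p = 0.0612 to 0.139).

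Col7a1 is the chain of the anchoring fibrils that tie epithelial basement membranes to the tissue beneath. It lies on chromosome 9 (108953586 to 108984875, plus strand). It had 57.3, 31.0 and 42.1 CPM in the high phosphate libraries, against 17, 16.7 and 24.1 CPM in the normal phosphate libraries. Every high phosphate library was above every normal phosphate library with TMM, but not with library size alone. The fitted log2 fold change was 1.18 ± 0.23 (edgeR adjusted p = 0.00448), 1.08 ± 0.29 without normal phosphate replicate 2 (edgeR adjusted p = 0.0321) and 0.69 with library size alone (edgeR adjusted p = 0.0207). On the deposited FPKM values, as log2(FPKM + 1), its difference was 0.33 and was not called (limma adjusted p = 0.191).

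**Figure D4:**
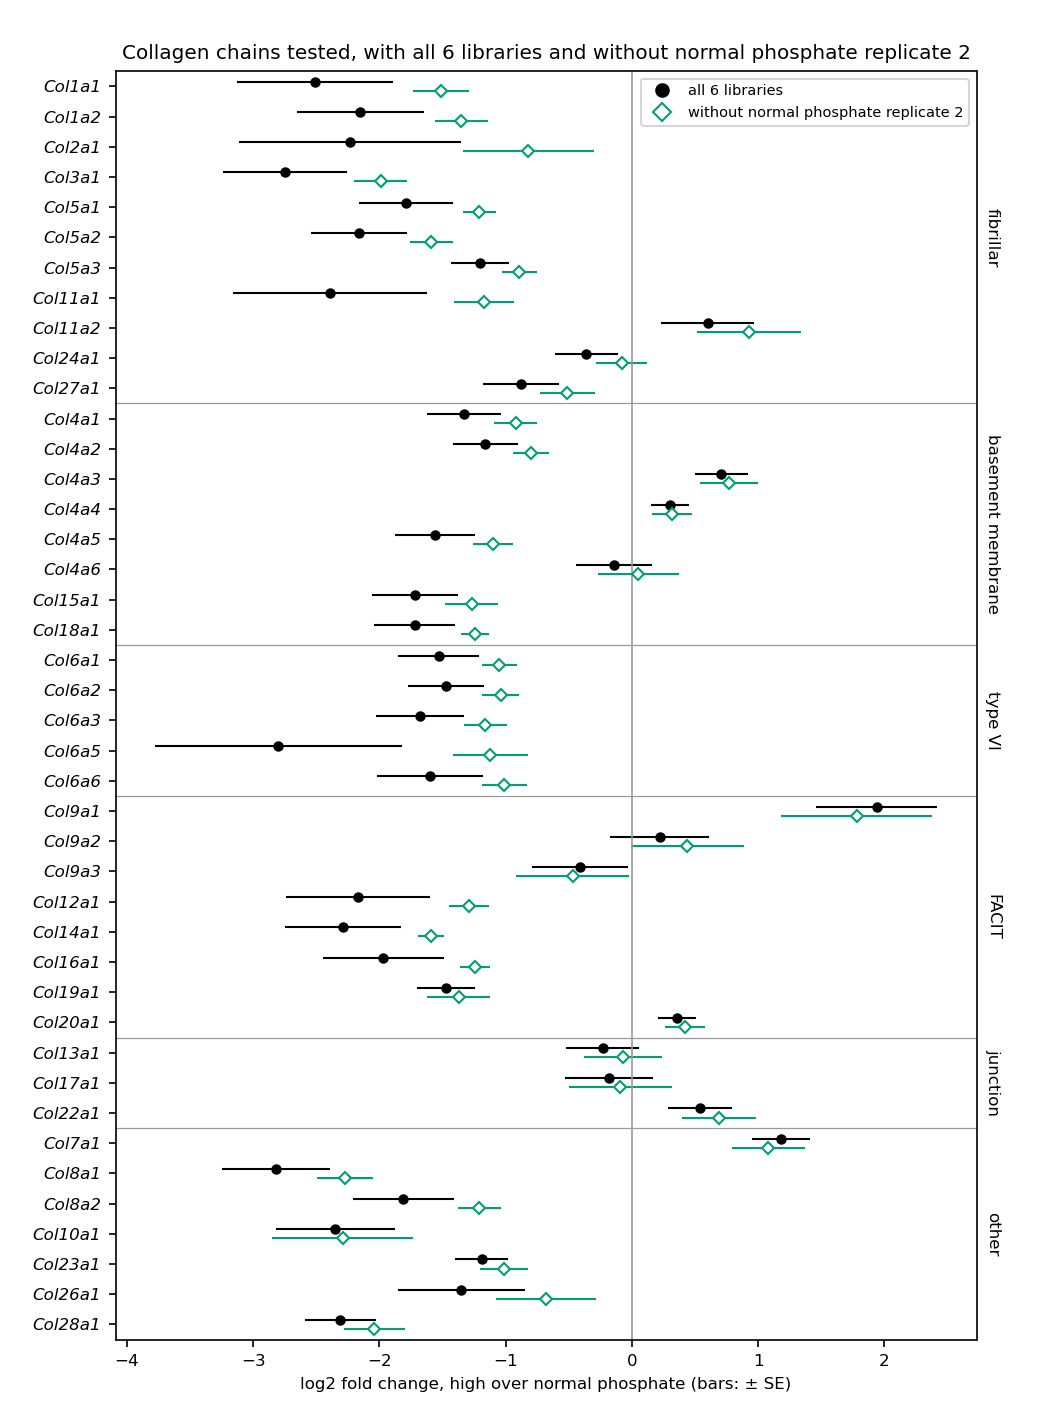
Log2 fold change, high over normal phosphate, of the 42 tested chains by class, with bars of ± SE; filled circles use all 6 libraries and open diamonds leave out normal phosphate replicate 2. The diamonds lie nearer 0 than the circles in all 27 chains that fell, and Col4a3, Col7a1 and Col9a1 are the chains called higher with all 6 libraries.

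Levels of different chains were compared per length, on the authors' FPKM values. On the high phosphate diet the leading chains were Col3a1 (43.7 ± 8.90 FPKM), Col4a1 (30.2 ± 5.14) and Col1a2 (28.4 ± 9.73), and on the normal phosphate diet Col3a1 (379 ± 303 FPKM), Col1a2 (161 ± 123) and Col1a1 (129 ± 129), as mean ± SD with n = 3 for each diet. The wide SDs on the normal phosphate diet come largely from replicate 2, which was the highest for all 3 chains. Col3a1 exceeded Col1a2 within each of the 6 libraries, at 50.3, 33.5 and 47.2 FPKM, against 32.9, 17.2 and 35 FPKM for Col1a2, in the high phosphate libraries, and at 229, 727 and 180 FPKM, against 109, 302 and 73.1 FPKM for Col1a2, in the normal phosphate libraries. Col1a1 ranked seventh on the high phosphate diet, at 14.5 ± 4.08 FPKM (n = 3). The 3 leading chains held 43.8% of the summed mean FPKM of the chains on the high phosphate diet and 54.0% on the normal phosphate diet.

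By class, fibrillar chains held 52.9%, 40.4% and 46.7% of the summed FPKM of the chains in high phosphate replicates 1, 2 and 3, against 56.8%, 65.5% and 55.7% in normal phosphate replicates 1, 2 and 3. Basement membrane chains held 22.6%, 33.8% and 27.4% in the high phosphate libraries, against 22.4%, 16.6% and 21.8% in the normal phosphate libraries. So the fibrillar share was lower in every high phosphate library and the basement membrane share higher, but the margins were narrow. For fibrillar chains the nearest libraries were high phosphate replicate 1 (52.9%) and normal phosphate replicate 3 (55.7%). For basement membrane chains they were the first replicates, at 22.6% in high phosphate and 22.4% in normal phosphate. Type VI chains held 18.9% to 20.0% in high phosphate and 14.0% to 17.5% in normal phosphate libraries. Junction chains held 0.707% to 1.0% in high phosphate and 0.135% to 0.304% in normal phosphate libraries, again without overlap. Their summed FPKM overlapped, at 1.39 to 2.52 in high phosphate and 2.01 to 3.04 in normal phosphate libraries. All chains summed to 197 to 270 FPKM in high phosphate and 660 to 2250 FPKM in normal phosphate libraries. The FPKM sums of basement membrane and type VI chains were lower in every high phosphate library, although their shares were higher. With 3 libraries against 3, no exact test of such a share can give a p under 0.10.

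Ratios of chains within a library do not depend on scaling between libraries. Of 8 ratios, each tested by a two-sided exact permutation test over the 6 libraries, 3 did not overlap between the diets by counts, which gives the smallest p this design allows, 0.1 (0.267 after Benjamini-Hochberg adjustment over the 8). The log2 count ratio of Col1a1 to Col1a2 was -0.90, -0.98 and -0.89 in the high phosphate libraries, against -0.82, -0.44 and -0.67 in the normal phosphate libraries. That of Col6a1 to Col1a1 was -0.44, 0.13 and -0.19 in the high phosphate libraries, against -0.6, -1.52 and -0.74 in the normal phosphate libraries. That of Col6a3 to Col6a1 was -0.24, -0.36 and -0.19 in the high phosphate libraries, against -0.12, -0.08 and -0.15 in the normal phosphate libraries. Col1a1 was thus lower relative to Col1a2 and to Col6a1 on the high phosphate diet, and the mean difference for Col6a1 to Col1a1 was 0.79 with all libraries and 0.50 without normal phosphate replicate 2. For Col1a1 to Col1a2 the mean difference was -0.28 with all libraries and -0.18 without that library, and on FPKM in place of counts this ratio overlapped between the diets (exact permutation p = 0.3).

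The other ratios overlapped. The log2 ratio of Col4a1 to Col4a2, the pair that starts 21 bases apart, differed by -0.15 (exact permutation p = 0.2), with 0.46, 0.59 and 0.52 in the high phosphate libraries, against 0.69, 0.73 and 0.59 in the normal phosphate libraries. The ratio of Col4a1 to Col1a1 differed by 0.97 and that of Col3a1 to Col1a1 by -0.34 (exact permutation p = 0.2 each). Without normal phosphate replicate 2 the difference for Col4a1 to Col1a1 was 0.64. That for Col3a1 to Col1a1 ran from -0.46 to -0.2 with 1 library left out, the smallest being without normal phosphate replicate 1, and was -0.12 on FPKM. Col6a1 and Col6a2 differed by -0.04 in their log2 ratio (exact permutation p = 0.5). Col5a2 to Col1a1 differed by 0.18 (exact permutation p = 0.7), and by -0.05 without normal phosphate replicate 2.

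**Figure D5:**
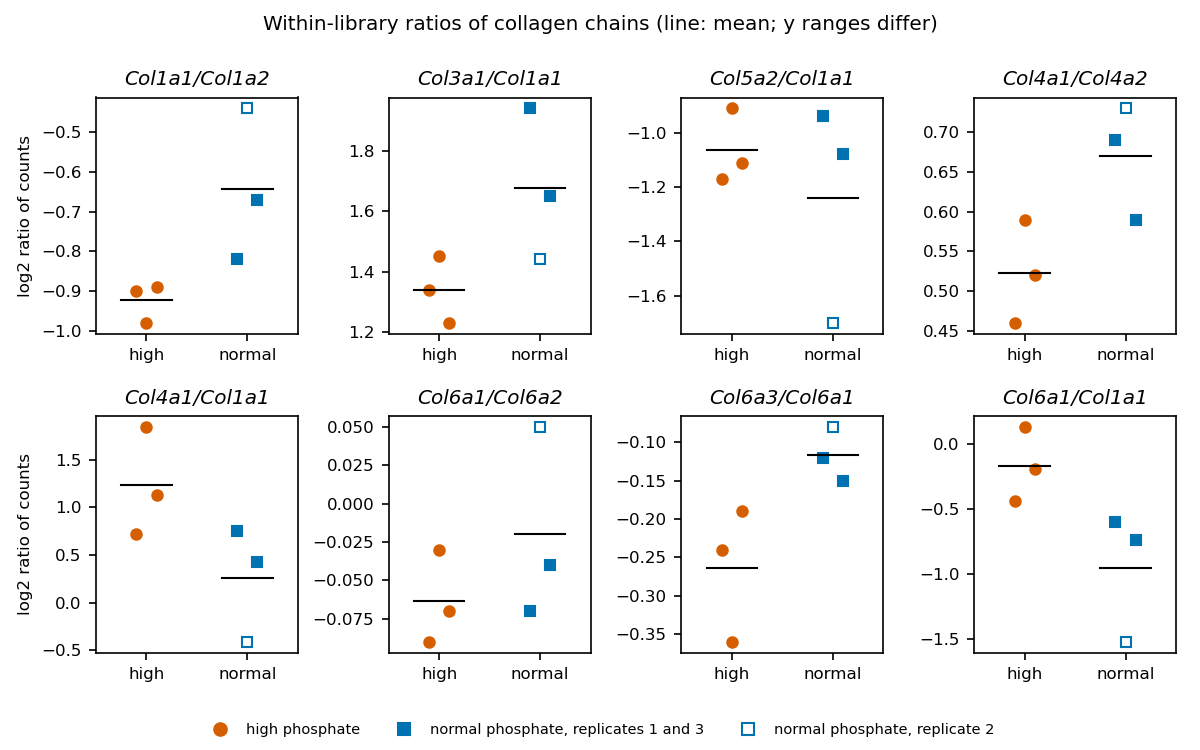
Log2 ratio of the counts of 2 chains within each library, for 8 pairs; circles are high phosphate libraries, squares normal phosphate libraries and the open square normal phosphate replicate 2. The groups are apart for Col1a1/Col1a2, Col6a3/Col6a1 and Col6a1/Col1a1 and overlap for the other 5 pairs.

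Promoter sequence was set beside these changes. RefSeq gives windows of 250 bases before the start for 35 of the 44 chains (38 windows, GRCm38.p6). CCAAT, on either strand, was in 13 of the 38 windows (33.8% of all 32851 windows), GGGCGG in 22 (32.7% of all windows) and TATAAA in 5 (12.4% of all windows). Motifs were counted separately, so that matches such as ATTGG and GGGCGG may share letters. A match is a string of letters and not a site. Windows of 2 fibrillar chains, those with the highest mean FPKM of the class on both diets, are shown with matches in capitals. They are the 250 bases before the Col3a1 start, with 1 TATAAA, and 30 bases around the CCAAT of Col1a2, which lie within an annotated exon.
Col3a1, chr1:45311288-45311537, plus strand: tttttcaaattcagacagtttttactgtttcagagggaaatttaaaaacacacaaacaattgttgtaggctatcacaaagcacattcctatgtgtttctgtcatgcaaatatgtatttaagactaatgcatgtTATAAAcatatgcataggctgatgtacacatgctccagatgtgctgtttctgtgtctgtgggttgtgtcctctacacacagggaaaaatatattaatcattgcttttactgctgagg
Col1a2, chr6:4505501-4505530, plus strand: gaatggaaCCAATttaagaagccccgtagc

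Genes that make and handle collagen were taken from lists, whose counts stand beside 26.3% of all genes that fell and 23.0% that rose. In the endoplasmic reticulum, where chains are hydroxylated and folded, 11 of 19 listed genes fell, 3 rose and 5 were not called, with a median log2 fold change of -0.73. Ppib, the prolyl isomerase cyclophilin B, had 13.5, 15.3 and 15 CPM in the high phosphate libraries, against 25.4, 36.7 and 27.8 CPM in the normal phosphate libraries (log2 fold change -1.04 ± 0.15, edgeR adjusted p = 0.000975). P3h3, of the prolyl 3-hydroxylase family, had 10.3, 11.6 and 11.3 CPM in the high phosphate libraries, against 19.7, 30.2 and 18.5 CPM in the normal phosphate libraries (log2 fold change -1.04 ± 0.19, edgeR adjusted p = 0.00229). P4ha2, a catalytic subunit of prolyl 4-hydroxylase, was higher at 37.3, 48.7 and 34.5 CPM in the high phosphate libraries, against 24.5, 23.1 and 23.5 CPM in the normal phosphate libraries, and its log2 fold change was 0.76 ± 0.13 (edgeR adjusted p = 0.00215). By library size alone it was 0.29 and not called (edgeR adjusted p = 0.135). On log2(FPKM + 1) it turned to -0.14. With library size alone 16 of the 19 fell (51.4% of all genes) and 0 rose (5.72%). Among the 11 that fell, P4ha3, another catalytic subunit, had 1, 2 and 2 counts in the high phosphate libraries, against 19, 133 and 17 counts in the normal phosphate libraries, and so passed the filter on low counts through its normal phosphate libraries.

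Secretion genes split. Of 6 listed, 5 were tested, 3 rose and 2 fell, counts too small to be set apart from the shares of all genes, and with library size alone 2 fell and 0 rose. Mia2, the gene that was not tested, was at 0 counts. Mia3, the TANGO1 receptor that loads procollagen into carriers, had 127, 112 and 111 CPM in the high phosphate libraries, against 65.6, 67.6 and 77.5 CPM in the normal phosphate libraries (log2 fold change 0.73 ± 0.11, edgeR adjusted p = 0.00131, and 0.25 by library size alone, edgeR adjusted p = 0.0764). Sec23a, of the COPII inner coat, had 143, 126 and 128 CPM in the high phosphate libraries, against 88.8, 79.9 and 90.6 CPM in the normal phosphate libraries (log2 fold change 0.61 ± 0.11, edgeR adjusted p = 0.00236, and 0.14 by library size alone, edgeR adjusted p = 0.221). Sec24d, the cargo adaptor of the same coat, had 16.2, 17.7 and 19.9 CPM in the high phosphate libraries, against 32.1, 46.1 and 29.2 CPM in the normal phosphate libraries (log2 fold change -1.0 ± 0.18, edgeR adjusted p = 0.00216).

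Outside the cell the listed genes fell or were not called, and 26.3% of all genes fell. In the lists that follow, 0 genes rose in edgeR, DESeq2 or limma-voom, and at an unadjusted p under 0.05 the single higher gene was Tgm2 in DESeq2. In propeptide processing 4 of 7 tested genes fell, among them Adamts2, the procollagen N-proteinase, with 24.7, 20.9 and 26.4 CPM in the high phosphate libraries, against 61.8, 104 and 53.9 CPM in the normal phosphate libraries (log2 fold change -1.61 ± 0.24, edgeR adjusted p = 0.00154). The C-proteinases Bmp1 (log2 fold change -1.07 ± 0.19, edgeR adjusted p = 0.00268) and Tll1 (-1.53 ± 0.35, adjusted p = 0.00649) also fell. Among 6 crosslinking enzymes 3 fell, namely Loxl1 (log2 fold change -1.52 ± 0.23, edgeR adjusted p = 0.00149), Loxl2 (-1.31 ± 0.22, adjusted p = 0.00232) and Loxl3 (-0.92 ± 0.18, adjusted p = 0.00351).

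Of 12 proteins that bind collagen fibrils 9 fell. Dpt, dermatopontin, had 117, 151 and 137 CPM in the high phosphate libraries, against 355, 383 and 277 CPM in the normal phosphate libraries (log2 fold change -1.33 ± 0.17, edgeR adjusted p = 0.000662). Normal phosphate replicate 2 was 1.21-fold above the mean of the other two for Dpt, and 1.64- to 5.98-fold above it for the fibrillar chains. Fn1, fibronectin (log2 fold change -1.84 ± 0.30, edgeR adjusted p = 0.00170), and Aspn, asporin (-1.84 ± 0.29, adjusted p = 0.00172), fell as well. Of 11 receptors and uptake genes 8 fell, led by Lair1, an inhibitory collagen receptor of immune cells, with 2.75, 1.99 and 1.56 CPM in the high phosphate libraries, against 9.0, 17 and 8.05 CPM in the normal phosphate libraries (log2 fold change -2.43 ± 0.34, edgeR adjusted p = 0.00107). Antxr1 (log2 fold change -1.53 ± 0.28, edgeR adjusted p = 0.00349) and Antxr2 (-0.79 ± 0.15, adjusted p = 0.00313), which bind matrix proteins, fell too. Among the 8 that fell, Itga2 had 7, 7 and 18 counts in the high phosphate libraries. It had 38, 87 and 38 counts in the normal phosphate libraries, and so passed the filter on low counts through those.

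Markers of other cell types are given beside the chains, and their counts beside 26.3% of all genes that fell and 23.0% that rose. In the fibroblast, tenocyte, endothelial, smooth muscle, adipocyte, macrophage and cartilage lists 0 markers rose in edgeR, DESeq2 or limma-voom, with Vwf higher at an unadjusted p under 0.05 in edgeR and DESeq2. Of 9 tested fibroblast markers 7 fell, and the summed level of the list was 2790, 3780 and 3590 CPM in high phosphate replicates 1, 2 and 3, against 5930, 5600 and 5630 CPM in normal phosphate replicates 1, 2 and 3. The other listed fibroblast marker, Tcf21, had 0 to 4 counts. This sum was about even across the normal phosphate libraries, whereas the chains were highest in replicate 2, so the ratio of summed chain CPM to summed fibroblast marker CPM was 0.774, 0.468 and 0.638 in the high phosphate libraries, against 0.933, 2.38 and 0.796 in the normal phosphate libraries. The ratio was lower in each high phosphate library than in any normal phosphate library, but high phosphate replicate 1 and normal phosphate replicate 3 were close. Most of the marker sum was Gsn alone, at 2100, 2930 and 2820 CPM in the high phosphate libraries. In the normal phosphate libraries Gsn had 4660, 4240 and 4620 CPM. The evenness of the sum and the size of the ratio therefore rest largely on Gsn, and the ratio without it was not computed.

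Of 8 tenocyte markers, 2 of which are also among the fibril-binding proteins, 4 fell, with sums of 358 to 491 CPM in high phosphate and 577 to 927 CPM in normal phosphate libraries. Of 8 endothelial markers 7 fell, with sums of 508 to 709 CPM in high phosphate and 861 to 1010 CPM in normal phosphate libraries, and of 8 smooth muscle and pericyte markers 3 fell, a share near that of all genes, with sums of 820 to 1150 CPM in high phosphate and 1360 to 1520 CPM in normal phosphate libraries. White adipocyte markers (8 of 8 fell, 560 to 964 CPM in high phosphate and 2360 to 3000 CPM in normal phosphate libraries) and macrophage markers (8 of 8 fell, 322 to 470 CPM in high phosphate and 945 to 1790 CPM in normal phosphate libraries) moved the same way. Of 9 cartilage and bone markers matched by symbol, 2 could be tested and 1, Matn3, fell. Matn3 had 0, 6 and 3 counts in the high phosphate libraries, against 16, 40 and 12 counts in the normal phosphate libraries, and so passed the filter through its normal phosphate libraries. The list summed to 0.883 to 1.24 CPM in high phosphate and 1.76 to 9.46 CPM in normal phosphate libraries, with Matn1 at 0 in every library. The sum of 9.46 CPM was that of normal phosphate replicate 2, where Acan alone held 6.8 CPM. Myofibre markers, which define the labelled tissue, were abundant in all 6 libraries and went the other way (7 of 8 rose, 155000 to 198000 CPM in high phosphate and 53800 to 77700 CPM in normal phosphate libraries). The marker counts depend on the scaling too. With library size alone, 7 of 8 tenocyte, 7 of 8 endothelial and 7 of 8 smooth muscle and pericyte markers fell (51.4% of all genes). On that scaling 8 of 9 fibroblast markers fell, and 5 of 8 myofibre markers rose (5.72% of all genes). The part of these cell types in the levels of the chains was not tested.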

How the data were processed

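RNA of gastrocnemius was extracted with TRIzol and sequenced, per the labels' protocols. The authors deposited whole-number read counts per gene, with no normalization. They deposited FPKM values too, as a second table of these libraries. The submitters' processing notes list GRCm38 as the build and, with no roles, DESeq2 1.6.3, featureCounts 1.4.6, HISAT2 2.0.1 and Trim Galore 0.4.1. Annotation release, strand setting and FPKM tool: not given in the sources used here. Reads of genes that overlap on opposite strands may therefore be counted for either.

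Libraries were grouped and numbered from the sample labels. The test was edgeR 4.0.16 (R 4.3.3), quasi-likelihood, on all genes, with TMM, the filterByExpr filter and robust estimation, and without a replicate block. The SE was derived from the F statistic (log2 fold change over its root) and is approximate. The common biological coefficient of variation was 0.161. FPKM was tested with limma 3.58.1, as log2 of FPKM plus 1 or 0.1, over genes at 0.5 FPKM or more in 3 libraries. DESeq2 1.42.0 and limma-voom were alternatives. The edgeR step was tested on simulated data with known changes. Levels are mean ± SD or per library, and depth limits chains under about 1 CPM. The members, gene lists and tests were chosen with earlier results of these data known. Every chain is accounted for, and of each pathway list up to 3 called genes with the smallest p are named with full values. Gene positions and overlaps are from GENCODE M21 on GRCm38, and promoter windows are from RefSeq. No protein sequences were used here.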

Additional observations from a re-analysis of the deposited data

How the results depend on the processing

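The count of falling chains (27) was 18 with no filter on low counts, at the limit of the 1.5-fold range used here. It was 21 to 29 when 1 library was left out and 30 with library size alone, and no alternative run left that range. With no filter the calls of Col1a1, Col1a2, Col5a1, Col11a1, Col4a5, Col6a3, Col6a6, Col12a1, Col16a1 and Col8a2 were lost, with log2 fold changes still negative. The count of rising chains (3) was 0 on each of the 3 FPKM settings (pseudocount 1, 0.1, and 1 with no filter; 1.8% to 4.87% of all genes) and, in a run added after the data were seen, 0 with library size alone and without normal phosphate replicate 2. The first 2 FPKM settings tested 28 of the 44 chains, without Col4a3 and Col9a1, which could not be called there, and with Col7a1. Otherwise the count was 5 at an adjusted p under 0.1, and 2 to 4 with 1 library left out.

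By class, basement membrane chains called higher (1) numbered 0 with library size alone, the added run, a 2-fold limit and the FPKM settings, and 0 to 1 with a library left out. FACIT chains called higher (1) numbered 0 on FPKM and in the added run, 2 at an adjusted p under 0.1 and 0 to 1 with a library left out, and those called lower (4) numbered 2 with no filter, 2 on log2(FPKM + 1) and 2 to 4 with a library left out. Fibrillar chains called lower (8) numbered 4 with no filter. Junction chains called higher (0) numbered 1 at an adjusted p under 0.1 and 0 to 1 with a library left out. Other chains called higher (1) numbered 0 on FPKM and in the added run.

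Folding genes called higher (3) and secretion genes called higher (3) each numbered 0 with library size alone, the added run, FPKM and a 2-fold limit. Folding genes called lower (11) numbered 7 on log2(FPKM + 1) with no filter and 7 with a 2-fold limit. Secretion genes called lower (2) numbered 1 on log2(FPKM + 1) with no filter, 0 with a 2-fold limit and 1 to 2 with a library left out. Crosslinking genes called lower (3) numbered 5 with library size alone, and receptor genes called lower (8) numbered 5 on log2(FPKM + 1) with no filter and 4 with a 2-fold limit.

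Same-numbered libraries did not deviate together (correlations of -0.021 to 0.022), and those with different numbers had correlations of -0.045 to 0.026. Deviations from means of 3 libraries cannot show whether the numbers pair the samples. With the replicate number as a block, 22 chains fell (25.5% of all genes) and 3 rose (22.2%), fibrillar chains called lower numbered 5 and secretion genes called lower 1. Col1a1 (-2.15, edgeR adjusted p = 0.0600), Col11a1 (-1.95, 0.0875), Col27a1 (-0.83, 0.0841), Col6a6 (-1.46, 0.0613) and Col26a1 (-1.22, 0.0576) were then not called.

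Signs turned, in values that were not called, for the junction median (0.14 with a filter of 1 CPM in 3 libraries, and -0.38 to 0.01 with a library left out), Col4a4 (-0.17 with library size alone, -0.09 in the added run, -0.05 and -0.12 on FPKM), Col4a6 (-0.33 to 0.1 with a library left out, and 0.05 without normal phosphate replicate 2), Col9a2 (-0.25 with library size alone, -0.02 on FPKM with no filter, -0.08 to 0.51 with a library left out), Col20a1 (-0.12 with library size alone, -0.04 and -0.07 on FPKM), Col13a1 (-0.41 to 0.05 with a library left out), Col22a1 (-0.03 and -0.07 on FPKM) and the log2 ratio of Col5a2 to Col1a1 (-0.05 to 0.33 with a library left out, the sign turning without normal phosphate replicate 2). P4ha2, called higher, turned to -0.14 and -0.18 on FPKM. Col17a1, at 0.458 to 0.779 CPM, does not pass the filter of 1 CPM in 3 libraries, so the junction median of 0.14 was taken without it. The cause of the other turns was not tested.

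Chains under about 1 CPM, such as Col2a1, Col9a2, Col9a3, Col10a1, Col17a1 and Col26a1, rest on few counts, and their SEs of 0.35 to 0.88 leave moderate changes undetectable. Which of the scalings is nearer to RNA per muscle cannot be told from these libraries.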
